A study of Mus musculus with 24 samples.

Results

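At 4 h, dexamethasone acted differently on macrophages that also received LPS than on macrophages that did not: the difference between its effect with and without LPS was called in 5797 of 14985 tested genes (38.7%). That difference is the LPS by dexamethasone interaction, taken on the log2 scale as the dexamethasone effect under LPS (LPS plus dexamethasone against LPS) minus the effect of dexamethasone alone (dexamethasone against untreated). Its size rests on 12 of the 24 libraries of the series. These are the 3 untreated, 3 dexamethasone, 3 LPS and 3 LPS plus dexamethasone libraries collected 4 h after treatment. Each library is RNA-seq of bone marrow-derived macrophages, grown from the femur and tibia marrow of wild-type C57BL/6J mice aged 8 to 12 weeks in a medium whose M-CSF came from L929-cell supernatant. Dexamethasone was given at 100 nM and LPS at 100 ng, in a volume the labels do not state, and all groups shared the strain, the genotype and the medium. The other 12 libraries repeat the 4 treatments at 24 h and are used here only to ask whether the interaction of the same genes was found again. Whether the 3 replicates of a treatment are separate mice or separate cultures is not labelled. The p-values therefore cover only the spread within the groups of these 24 libraries, which may be technical.

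Dexamethasone is a synthetic glucocorticoid that binds the glucocorticoid receptor, a transcription factor which both activates genes through its own DNA elements and restrains genes driven by NF-kB and AP-1. LPS, a component of the outer membrane of Gram-negative bacteria, signals through Toll-like receptor 4 to NF-kB, the MAP kinases and interferon regulatory factors. In macrophages the hormone is known both for damping inflammatory genes and for inducing genes that end inflammation, some of them together with the inflammatory signal. A positive interaction means that the hormone raised a gene more, or lowered it less, when LPS was present, and a negative one the reverse.

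The libraries of 4 h held 18326206 to 27908164 counts. TMM scaling factors lay at 1.163 to 1.184 in the libraries without LPS, 0.679 to 0.705 with LPS and 0.790 to 0.823 with both, so the scaling itself enters the interaction, and the log2 shift it makes is given with the counts. The 8 macrophage markers were all tested and summed to 16736 to 24372 CPM in every library of 4 h. Neutrophil markers summed to 53.2 to 176 CPM, lymphocyte markers to 5.14 to 10.1 CPM and erythroid markers to at most 0.508 CPM, with Hbb-bs and Hbb-bt among those at 0. Stromal and endothelial markers summed to 14.4 to 21.04 CPM in untreated cells, 1.83 to 2.68 with dexamethasone, 102 to 143 with LPS and 22.2 to 28.3 with both. Osteoclast markers summed to 28.1 to 45.4 CPM in untreated cells, 37.3 to 47.5 with dexamethasone, 81.3 to 107 with LPS and 203 to 219 with both, and dendritic cell markers to 24.9 to 36.1, 32.0 to 37.8, 54.4 to 76.8 and 35.8 to 46.2 CPM in the same order. The part of these markers in the results was not tested. In a bulk sample, fewer cells of a type and less RNA per cell cannot be told apart. Counts are summed over the exons of a gene, and gene positions are given as in the count table, whose annotation is GENCODE M29. Levels are CPM, the count relative to the TMM-scaled library total, given as mean ± SD of 3 libraries. Effects are log2 fold changes ± an approximate standard error, and adjusted p-values are those of the quasi-likelihood F test in edgeR, corrected by Benjamini-Hochberg across the 14985 genes.

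Of the called genes, 3122 had a positive interaction (20.8% of those tested) and 2675 a negative one (17.9%). At 2-fold or more the numbers were 923 (6.16%) and 844 (5.63%), together 1767 genes that were then sorted into classes. With the 12 libraries of 4 h fitted alone, 2907 positive and 2335 negative interactions were called, and 1547 genes were sorted. Over all tested genes the median interaction was 0.03, and the lower and upper quartiles were -0.39 and 0.46. With scaling by library size alone the interactions moved up by a median of 0.23. The called genes were then 77.1% positive in place of 53.9%. With relative log expression (RLE) scaling, or with DESeq2 and its own test, they were 48.8% positive. Close to the 2-fold limit, 198 sorted genes lay between 1.0 and 1.1 in size, and 233 called genes lay between 0.9 and 1.0 and were left unsorted. Of the sorted genes, 676 averaged below 1 CPM in at least 1 group, where a fold change rests on few counts.

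Sorting followed the single effects. Loss of hormone response held 518 genes that dexamethasone alone changed at least 2-fold and whose response LPS lessened, abolished or turned around. Antagonism held 769 genes that LPS alone changed at least 2-fold and on which the added hormone worked against LPS. Synergy held 288 genes, in neither of these groups, that ended higher or lower under both agents than under either agent and than in untreated cells. The groups were filled in this order. Genes that ended highest with both agents are therefore also found in antagonism, such as Mvd, and in loss, such as Fam20c. The remaining 192 sorted genes met none of these conditions. The plot of the hormone effect with against without LPS shows the 3 kinds in different places. Most antagonism and synergy genes lie above and below the centre, with exceptions such as Tsc22d3 at the upper right. Loss of response lies to the left and right of it, with lessened or turned around responses, such as Fkbp5, off the horizontal axis. Class sizes and class medians follow from the rule that made them and are given as descriptions.

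**Figure D1:**
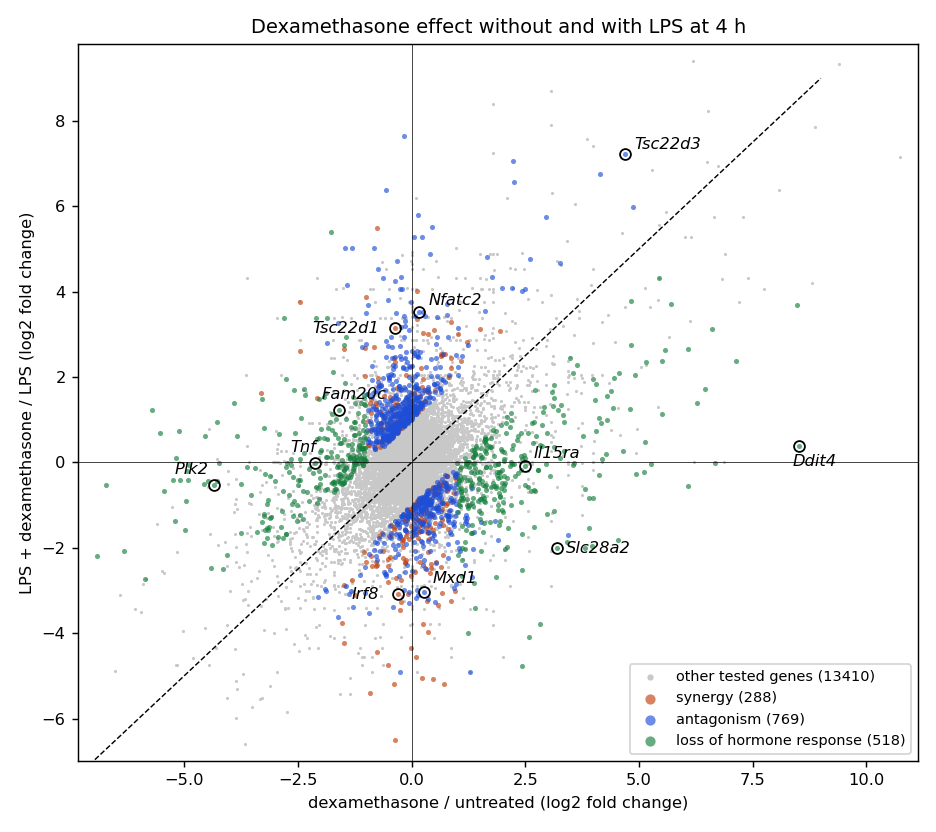
Log2 fold change of each of the 14985 tested genes at 4 h with dexamethasone against untreated (horizontal) and with LPS plus dexamethasone against LPS (vertical), coloured by class, and the dashed line marking equal effects. The vertical distance from that line is the interaction; Ddit4 at the far right rose by 8.53 on the log2 scale without LPS and by 0.39 with it.

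The synergistic rises held 125 genes, with a median change of -0.33 with dexamethasone, 0.20 with LPS and 1.61 with both against untreated cells. The single agents were not without effect: LPS alone raised 32 of these genes at least 2-fold, and dexamethasone alone was called up in 12 and down in 43. The summed osteoclast markers were also highest with both agents, as given above. Of those 6 markers, 0 had a called positive interaction and 1 a negative one, so none is in this class. What cells of that type add to the class was not tested. Tsc22d1 (chr14:76652401-76745205) led it, a transcriptional regulator of the family that also holds the hormone-induced Tsc22d3. Genes left out of the ranking had interactions of up to 6.25. For Tsc22d1 the libraries were as follows. The level was 38.7, 31.03 and 34.3 CPM in the untreated libraries, 28.4, 27.9 and 24.8 with dexamethasone, 36.9, 33.2 and 26.8 with LPS and 291, 282 and 291 with both. Only the libraries with both agents stood apart, far above all others, while the other 3 groups overlapped or nearly touched. The interaction was 3.52 ± 0.12, adjusted p = 1.2e-21. Tbc1d2b, which encodes a protein of the Rab GTPase-activating family, read 73.9 ± 2.76 CPM in untreated cells, 57.6 ± 1.25 with dexamethasone, 43.3 ± 1.32 with LPS and 222 ± 6.73 with both (interaction 2.72 ± 0.08, adjusted p = 8.9e-25). Ppp1r12b, a targeting subunit of myosin phosphatase, went from 9.24 ± 0.924 CPM with LPS to 75.6 ± 6.93 with both (interaction 2.77 ± 0.23, adjusted p = 4.6e-09). Zfp503, a zinc finger protein, was at 1.898 ± 0.431 CPM in untreated cells and 20.4 ± 0.971 with both, and Rgcc, a regulator of the cell cycle, at 2.28 ± 0.458 and 6.28 ± 1.93 CPM. Il1r2, the decoy receptor that captures interleukin 1, belongs here at a low level: its counts summed over the 3 libraries were 20 untreated, 34 with dexamethasone, 21 with LPS and 212 with both (interaction 2.42 ± 0.78, adjusted p = 0.013), and without untreated library 2 the adjusted p was 0.14.

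Synergistic falls took in the lineage factor Irf8 and several surface receptors. Among the 163 genes, the median change was 0.16 with dexamethasone, -0.34 with LPS and -2.0 with both against untreated cells. Dexamethasone alone was called up in 50 of them and down in 27, and LPS alone lowered 50 at least 2-fold. Irf8 (chr8:121463097-121483433), which directs the mononuclear phagocyte lineage, stood at 171, 167 and 179 CPM in the untreated libraries, 136, 144 and 143 with dexamethasone, 268, 261 and 256 with LPS and 28.4, 35.1 and 30.2 with both. No 2 groups overlapped, LPS alone raised it by 0.60, and the libraries with both agents were the lowest, -2.47 from untreated cells on the log2 scale. Its interaction was -2.78 ± 0.08, adjusted p = 8.9e-25. Cd200r1, an inhibitory receptor of myeloid cells, fell from 39.7 ± 2.004 CPM with LPS to 8.93 ± 1.67 with both although dexamethasone alone took it from 36.1 ± 1.72 to 58.3 ± 1.39 (interaction -2.85 ± 0.11, adjusted p = 2.1e-21). Cd300lb, an activating receptor of the CD300 family, read 308 ± 12.3 CPM in untreated cells, 181 ± 8.495 with dexamethasone, 25.1 ± 5.35 with LPS and 1.16 ± 0.202 with both; LPS alone brought it down by far the most in CPM, and the departure from additivity had the opposite sign on the linear CPM scale. Dhrs9, a retinol dehydrogenase, and Spry2, an inhibitor of receptor tyrosine kinase signalling, fell from 14.5 ± 1.64 to 2.48 ± 0.643 CPM and from 7.02 ± 1.74 to 1.66 ± 0.218 CPM when the hormone was added to LPS. Myc, the growth-promoting transcription factor, also fell synergistically, from 34.9 ± 5.97 CPM with LPS to 15.2 ± 1.76 with both, against 60.2 ± 1.65 in untreated cells and 59.7 ± 8.09 with dexamethasone.

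In 301 genes the hormone cut an LPS induction. Their median dexamethasone effect was 0.32 without LPS, where it was called up in 113, down in 38 and not at all in 150, and -1.25 with LPS. Mxd1 (chr6:86624024-86646143), a partner of Max that opposes Myc, gave 11.9, 7.98 and 11.05 CPM in the untreated libraries, 13.04, 13.6 and 10.96 with dexamethasone, 396, 409.9 and 375 with LPS and 43.6, 52.9 and 47.4 with both. The untreated and dexamethasone libraries overlapped, the LPS libraries were far higher, and those with both lay between. Its interaction was -3.305 ± 0.13, adjusted p = 1.9e-20. Klf6, an inducible zinc finger factor, rose with either agent alone, to 477 ± 28.2 CPM with dexamethasone and 1330.2 ± 125 with LPS from 275 ± 11.9 untreated, and came to only 356 ± 24.7 with both (interaction -2.696 ± 0.08, adjusted p = 1.3e-24). Errfi1, a feedback inhibitor of the EGF receptor, returned to 13.5 ± 3.11 CPM from 107 ± 24.3 with LPS, next to 13.003 ± 1.74 untreated. Osm, a cytokine of the interleukin 6 family, dropped from 12.6 ± 0.64 to 1.22 ± 0.441 CPM, below its untreated 3.92 ± 0.973. Prokr1, a prokineticin receptor, and Klf8 fell from 13.2 ± 1.204 to 1.64 ± 1.11 CPM and from 48.2 ± 0.976 to 8.51 ± 0.867 CPM.

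This class also held genes that themselves restrain inflammation. Il10, the anti-inflammatory cytokine, was 7.24 ± 1.23 CPM in untreated cells, 7.75 ± 0.417 with dexamethasone, 363 ± 21.3 with LPS and 76.7 ± 11.7 with both (interaction -2.34 ± 0.18, adjusted p = 1.3e-10). Zfp36, whose product tristetraprolin speeds the decay of cytokine mRNA, was 132 ± 10.01 CPM in untreated cells, 138 ± 2.52 with dexamethasone, 2172 ± 153 with LPS and 731 ± 72.7 with both (interaction -1.63 ± 0.11, adjusted p = 3.6e-12); it is often listed as a hormone-induced gene, and dexamethasone alone changed it by 0.06 ± 0.08 (adjusted p = 0.57). Cd86, a co-stimulatory ligand, fell from 144 ± 4.003 to 23.7 ± 2.597 CPM, and Hk2, the inducible hexokinase, from 335 ± 28.95 to 157 ± 14.5 CPM. Mmp13, a collagenase, fell from 4094 ± 358 to 507 ± 43.7 CPM; dexamethasone alone already lowered it by -1.33 ± 0.14 on the log2 scale, against -3.01 ± 0.08 under LPS.

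The largest class, with 468 genes, held LPS-repressed genes whose level the hormone brought back up. Their median was -2.26 with LPS against untreated, -0.25 with dexamethasone alone and 1.27 when dexamethasone was added to LPS. Nfatc2 (chr2:168318330-168443577), a transcription factor activated by calcineurin, read 64.4, 57.8 and 71.3 CPM in the untreated libraries, 73.4, 73.8 and 70.2 with dexamethasone, 1.99, 2.23 and 2.25 with LPS and 21.5, 27.6 and 25.5 with both. The untreated and dexamethasone libraries overlapped, the LPS libraries were the lowest, and those with both stayed below the untreated level. Its interaction was 3.36 ± 0.17, adjusted p = 3.6e-17. Rnf144b, a ubiquitin ligase, was restored from 2.895 ± 0.739 to 31.2 ± 3.31 CPM, against 31.6 ± 2.58 untreated. Fgd3, an exchange factor for Cdc42, overshot, from 51.9 ± 4.28 to 569 ± 10.98 CPM against 193 ± 4.29 untreated and 333 ± 9.04 with dexamethasone. Cdk5r1, the activator of Cdk5, went from 2.99 ± 0.711 to 11.1 ± 2.43 CPM although dexamethasone alone lowered it from 7.23 ± 0.441 to 4.36 ± 0.494.

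Classical hormone targets sat in the same class, and for them the scale decides the sign. Tsc22d3 (chrX:139440277-139501408), which encodes GILZ, an anti-inflammatory leucine zipper protein, was 37.02, 35.8 and 38.8 CPM in the untreated libraries, 974, 969 and 942 with dexamethasone, 2.04, 1.48 and 1.88 with LPS and 275, 251 and 279.9 with both. No groups overlapped: the hormone raised it 25.8-fold without LPS and 148-fold with LPS, from a starting level that LPS had lowered. The interaction was 2.52 ± 0.14, adjusted p = 4.8e-17. In CPM the gain was smaller with LPS, by 657 CPM. The same held for Cd163, the haemoglobin scavenger receptor (18.1 ± 1.99 CPM in untreated cells, 174 ± 7.77 with dexamethasone, 1.45 ± 0.426 with LPS and 36.4 ± 4.86 with both; interaction 1.402 ± 0.20), for the clock gene Per1 (26.6 ± 1.54 CPM in untreated cells, 149 ± 6.67 with dexamethasone, 6.94 ± 0.861 with LPS and 116 ± 1.35 with both; 1.58 ± 0.11) and for the Krüppel-like factor Klf9 (5.102 ± 0.677 CPM in untreated cells, 150.005 ± 1.39 with dexamethasone, 2.0996 ± 0.938 with LPS and 133 ± 6.21 with both; 1.11 ± 0.19). It held as well for Tns1, the focal adhesion protein tensin, at 615 ± 28.4 CPM with dexamethasone and 422 ± 35.05 with both. Sik1, a salt-inducible kinase, differed from these in ending higher with both agents (91.03 ± 4.45 CPM) than with dexamethasone alone (53.99 ± 3.29 CPM), from 17.1 ± 1.91 untreated and 3.21 ± 0.218 with LPS (interaction 3.17 ± 0.15, adjusted p = 2.7e-19).

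**Figure D2:**
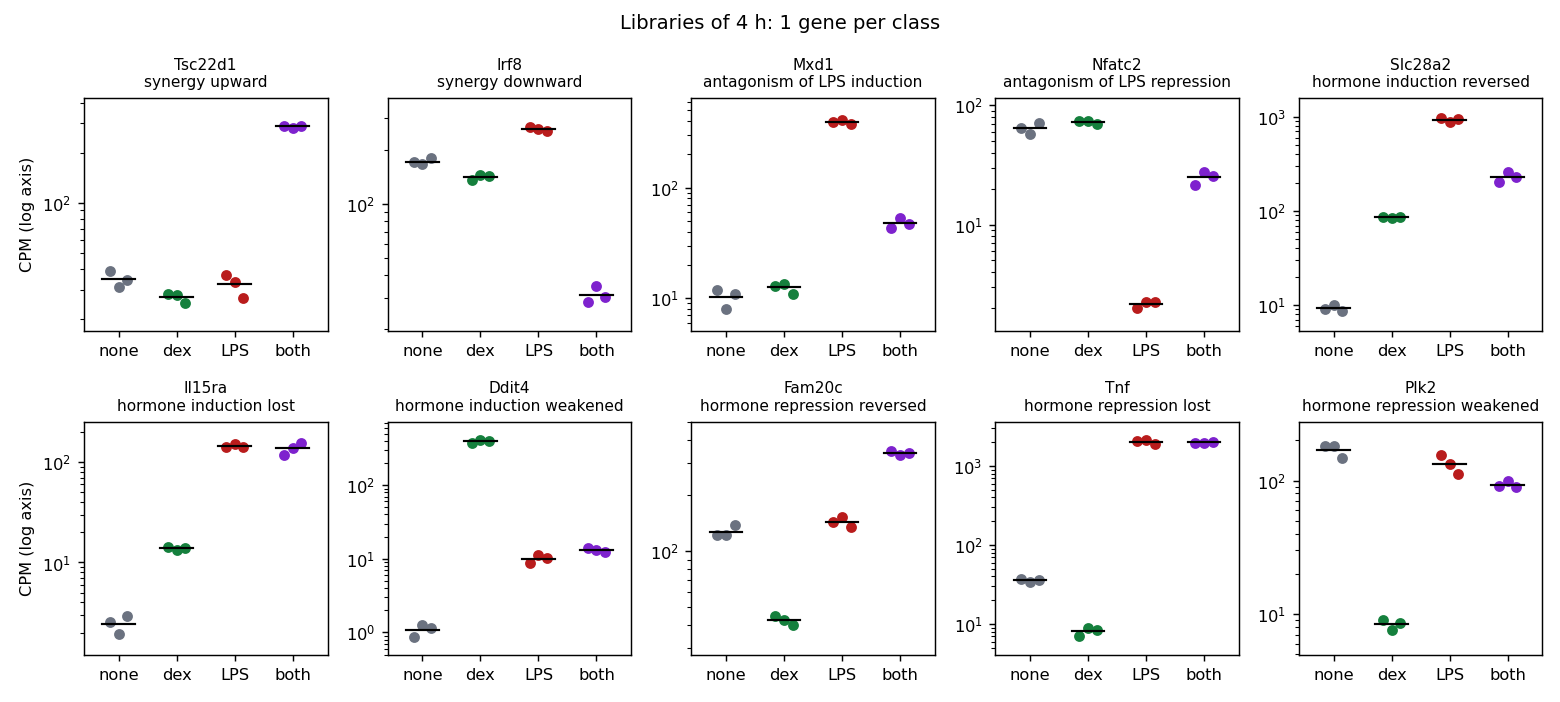
CPM on a log axis in each of the 3 libraries (points) and their mean (line) for 1 gene of each class at 4 h, untreated (none), with dexamethasone (dex), with LPS and with both. Tsc22d1 is high only with both agents, Irf8 is lowest with both, and Ddit4 is high only with dexamethasone alone.

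Many responses to the hormone alone were smaller under LPS. Dexamethasone alone raised 746 genes at least 2-fold, and in 282 of them (37.8%) LPS lessened the rise by 2-fold or more; of the 840 genes it lowered at least 2-fold, 236 (28.1%) lost as much of the fall. The median effect over the 746 genes was 1.80 without LPS and 0.77 with it, and over the 840 genes -1.61 and -0.94. These genes were picked for a large effect in the same dexamethasone and untreated libraries that enter the interaction, so these counts and medians are descriptions. In the other direction, a called interaction of any size raised the response further in 33 of the 746 genes and in 41 of the 840. That is a lower bar than the 2-fold set for the lessened responses.

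Among the 282 genes, the response stayed but was weaker in 78, was no longer called in 113 and turned into a fall in 91. Ddit4 (chr10:59785491-59787656), whose product REDD1 inhibits mTORC1, had the most negative interaction of all genes at 1 CPM or more in every group. It measured 0.874, 1.24 and 1.15 CPM in the untreated libraries, 378, 412 and 392 with dexamethasone, 8.84, 11.1 and 10.2 with LPS and 14.1, 13.02 and 12.2 with both. The dexamethasone libraries stood alone far above all others, and those with LPS and with both lay close without overlapping. The interaction was -8.14 ± 0.16, adjusted p = 3.9e-30, and the remaining effect under LPS was 0.39 ± 0.10 (adjusted p = 0.0014). Pik3ip1, an inhibitor of phosphatidylinositol 3-kinase, followed it with 1.37 ± 0.588 CPM in untreated cells, 50.8 ± 0.721 with dexamethasone, 2.98 ± 0.576 with LPS and 4.14 ± 0.415 with both (interaction -4.65 ± 0.26, adjusted p = 5.5e-17). Trp53inp1, a p53-induced gene, went from 14.8 ± 2.09 to 257 ± 12.5 CPM without LPS and only from 3.495 ± 0.724 to 7.28 ± 1.52 with it. Jaml, a junctional adhesion molecule, had 54 counts over the untreated libraries and 120 over the LPS libraries, and 259 ± 12.3 CPM with dexamethasone against 29.6 ± 2.67 with both.

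Textbook hormone targets were weakened to unequal extents. Dusp1, the phosphatase that switches off MAP kinases, rose from 57.4 ± 3.69 to 317 ± 8.11 CPM without LPS; LPS itself brought it to 938 ± 29.02 CPM, and adding the hormone gave 1054 ± 74.9 (interaction -2.297 ± 0.10, adjusted p = 1.1e-19). Mertk, a receptor for the uptake of apoptotic cells, reached 230.1 ± 8.85 CPM without LPS and 62.7 ± 4.74 with it, from 24.4 ± 3.898 and 26.6 ± 3.27 (interaction -1.99 ± 0.15, adjusted p = 9.2e-11). Fkbp5, a co-chaperone that limits the receptor's own activity, kept most of its response on the log2 scale: 4.82 ± 0.07 without LPS and 3.78 ± 0.07 with it (interaction -1.04 ± 0.09, adjusted p = 6.2e-12), although its level was 1481 ± 4.54 CPM in the first case and 531 ± 16.3 in the second. Gda, guanine deaminase, shows the limit of the log2 scale: it gained more CPM from the hormone with LPS (295 ± 17.1 to 872 ± 51.1) than without (25.5 ± 3.602 to 504 ± 25.7), yet fewer multiples (interaction -2.73 ± 0.12, adjusted p = 1.8e-15). Ms4a6b, a membrane protein of a cluster of similar genes, reached 436 ± 14.2 CPM without LPS and 497 ± 57.1 with it.

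Where the response was no longer called, LPS had in many genes taken the level past that reached with the hormone or below that of untreated cells. In 38 of the 113 genes the LPS mean exceeded the dexamethasone mean, and in 33 it was below the untreated mean. Neither is particular to lost inductions: the same counts were 24 and 17 of the 78 weakened and 61 and 6 of the 91 reversed inductions. Whether the LPS level has a part in the loss was not tested. Il15ra (chr2:11710101-11739128), the receptor chain that presents interleukin 15, is of the first kind with 2.53, 1.94 and 2.9 CPM in the untreated libraries, 14.3, 13.2 and 14.04 with dexamethasone, 142, 153 and 141 with LPS and 119, 138 and 157 with both. Its LPS libraries and those with both overlapped, far above the dexamethasone libraries. Its interaction was -2.56 ± 0.14, adjusted p = 5.8e-17, and the effect under LPS was -0.07 ± 0.07 (adjusted p = 0.39). Ms4a4c and the ubiquitin ligase Rffl behaved likewise, the first rising from 3.25 ± 0.86 to 22.8 ± 1.26 CPM with the hormone, against 448 ± 43.4 with LPS and 394 ± 59.2 with both. Thbd, the anticoagulant receptor thrombomodulin, is of the second kind: dexamethasone raised it from 21.4 ± 1.49 to 83.9 ± 3.62 CPM, LPS lowered it to 1.56 ± 0.0958 and the hormone left it at 1.02 ± 0.566. For Htr2a, a serotonin receptor, LPS itself changed little: it went from 1.97 ± 0.419 to 27.7 ± 1.44 CPM with dexamethasone and lay at 1.42 ± 0.713 and 2.24 ± 0.955 with LPS and with both (interaction -3.17 ± 0.41, adjusted p = 1e-07).

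In 91 genes the hormone raised the level of resting cells and lowered that of LPS-treated cells. LPS alone induced 70 of them at least 2-fold. Slc28a2 (chr2:122256958-122291618), a sodium-coupled nucleoside transporter, led with 9.08, 10.1 and 8.7 CPM in the untreated libraries, 86.6, 83.9 and 85.2 with dexamethasone, 963, 875 and 940.03 with LPS and 204, 261 and 231 with both. All 4 groups were separate, and the libraries with both agents lay between dexamethasone and LPS. The interaction was -5.195 ± 0.10, adjusted p = 3.9e-30. Ptger2, the EP2 receptor of prostaglandin E2, went from 1.69 ± 0.327 to 23.2 ± 1.404 CPM without LPS and from 15.1 ± 1.74 to 9.72 ± 0.665 with it (interaction -4.44 ± 0.19, adjusted p = 1.3e-20). Nfil3, a repressor of the clock and cytokine genes, rose to 37.3 ± 1.26 CPM from 6.88 ± 0.93 and fell to 36.4 ± 4.91 from 117 ± 1.78; it ended at almost the same level with dexamethasone alone and with both. Glipr2 rose from 1.69 ± 0.252 to 4.39 ± 0.288 CPM without LPS and fell from 53.7 ± 1.93 to 7.56 ± 0.567 with it. The chemokine receptor Ccr1 did the same, 19.6 ± 0.911 to 42.05 ± 4.66 and 28.3 ± 8.23 to 4.47 ± 1.53 CPM. Gpr35, a G protein-coupled receptor, read 1.405 ± 0.142 CPM in untreated cells, 7.58 ± 0.127 with dexamethasone, 4.29 ± 0.241 with LPS and 0.745 ± 0.358 with both (interaction -4.95 ± 0.36, adjusted p = 1e-13).

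Feedback inhibitors that both pathways induce were in this group. Nfkbia, which encodes the NF-kB inhibitor IkB-alpha, was 79.9 ± 3.75 CPM in untreated cells, 223 ± 14.1 with dexamethasone, 2552 ± 149 with LPS and 1939.8 ± 60.6 with both (interaction -1.87 ± 0.08, adjusted p = 8.1e-21). Its hormone effect was 1.48 ± 0.06 without and -0.40 ± 0.05 with LPS. Socs3, the inhibitor of cytokine receptor signalling, was 2.66 ± 0.87 CPM in untreated cells, 6.599 ± 1.39 with dexamethasone, 3286 ± 165 with LPS and 1657 ± 84.5 with both (interaction -2.24 ± 0.20, adjusted p = 4.9e-09).

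Loss of hormone repression took the same 3 forms, with 41 genes reversed, 129 no longer called and 66 weakened. Fam20c (chr5:138740269-138795832), a kinase of the secretory pathway, was reversed, with 122, 121 and 138 CPM in the untreated libraries, 44.3, 42.6 and 39.7 with dexamethasone, 144, 153 and 135 with LPS and 346, 332 and 339 with both. Untreated and LPS libraries overlapped, the dexamethasone libraries far below and those with both far above. The interaction was 2.82 ± 0.09, adjusted p = 4.2e-23. Rrad, a small GTPase, read 11.3 ± 0.849 CPM in untreated cells, 4.58 ± 0.759 with dexamethasone, 19.6 ± 0.332 with LPS and 56.9 ± 0.582 with both (interaction 2.84 ± 0.15, adjusted p = 2.6e-17), and the secreted factor Metrnl 193 ± 8.08 CPM in untreated cells, 93.8 ± 6.29 with dexamethasone, 73.6 ± 0.695 with LPS and 219 ± 11.8 with both (interaction 2.61 ± 0.08, adjusted p = 8.9e-25). Il7r, the interleukin 7 receptor, was lowered by the hormone in resting cells, from 159 ± 5.42 to 77.3 ± 6.81 CPM, and raised under LPS from 26.5 ± 1.64 to 68.9 ± 5.58. Eno2, a neuronal-type enolase, moved from 10.5 ± 1.11 to 4.46 ± 0.998 CPM and from 6.97 ± 0.568 to 18.4 ± 1.87.

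Tnf (chr17:35418357-35420983), the tumour necrosis factor gene, responded to the hormone in resting cells and not detectably under LPS. It measured 37.02, 33.9 and 35.9 CPM in the untreated libraries, 7.03, 9.02 and 8.502 with dexamethasone, 2049.9, 2112 and 1894 with LPS and 1966, 1968 and 2039.7 with both. Dexamethasone lowered the resting level with no overlap, whereas the LPS libraries and those with both overlapped. The interaction was 2.099 ± 0.11, adjusted p = 2.3e-17, from -2.12 ± 0.09 without LPS and -0.02 ± 0.06 with LPS (adjusted p = 0.83). In CPM the resting fall was small, and a departure from additivity on that scale was within the spread of the LPS libraries. Dusp4, another MAP kinase phosphatase, led the genes whose repression was no longer called, at 70.1 ± 3.89 CPM in untreated cells, 10.4 ± 1.98 with dexamethasone, 17.5 ± 2.01 with LPS and 16.2 ± 0.924 with both (interaction 2.64 ± 0.19, adjusted p = 1.2e-12). Frmd6 went the same way, from 59.3 ± 3.66 to 9.69 ± 1.36 CPM without LPS and from 8.79 ± 2.96 to 6.95 ± 0.623 with it, as did Map3k9, a kinase upstream of JNK, from 38.7 ± 0.851 to 10.2 ± 1.35 and from 1.15 ± 0.865 to 1.74 ± 0.491. Phgdh, the first enzyme of serine synthesis, fell from 30.7 ± 0.942 to 8.96 ± 1.01 CPM in resting cells and lay at 52.3 ± 2.92 and 62.1 ± 5.17 with LPS and with both. Acod1, which makes itaconate, fell 4.49-fold in resting cells from 3.28 ± 2.23 CPM, and under LPS it was 10327 ± 128 and, with the hormone, 8665 ± 331 CPM (interaction 1.91 ± 0.52, adjusted p = 0.0068).

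Weakened repression was led by Plk2 (chr13:110531580-110537378), a stress-responsive kinase, with 181, 181 and 148 CPM in the untreated libraries, 9.02, 7.53 and 8.63 with dexamethasone, 155, 134 and 112 with LPS and 90.4, 99.04 and 90.01 with both. The dexamethasone libraries were far below all others. Its interaction was 3.82 ± 0.19, adjusted p = 2.5e-12. Enc1 went from 106 ± 8.51 to 11.8 ± 1.06 CPM without LPS and from 25.3 ± 2.81 to 13.8 ± 0.342 with it, and the transcription factor Ets1 from 19.8 ± 2.52 to 3.53 ± 0.223 and from 3.29 ± 0.23 to 2.29 ± 0.114. The interferon-induced chemokine Cxcl10 had 221 counts over the untreated and 6 over the dexamethasone libraries, and fell from 9779.9 ± 556 to 3266 ± 249 CPM under LPS; its interaction of 3.400 ± 0.67 (adjusted p = 0.00043) therefore means a smaller fold on a far larger level. Ifit3, an interferon-induced gene with a near-identical copy Ifit3b, was similar, at 24.02 ± 5.97 and 2.63 ± 1.03 CPM without LPS and 2277 ± 173 and 785 ± 141 with it (interaction 1.65 ± 0.39, adjusted p = 0.0026). By the group means, only 31 of 66 genes of this class kept the sign of the interaction on the linear CPM scale, against 58 of 78 with weakened induction and at least 91.4% in each of the other 8 classes. Plau, the urokinase, lost its call without LPS plus dexamethasone library 1 (adjusted p = 0.28) and, among the other libraries left out singly, without untreated library 1, dexamethasone library 2, LPS library 2, LPS library 3 or LPS plus dexamethasone library 3.

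Many of the inflammatory genes best known as hormone targets showed no called interaction. Il6, Il1a, Il12b, Nos2 and Csf3 were almost absent without LPS, so that their interaction could hardly be measured: Il6 had 3 counts over the untreated and 1 over the dexamethasone libraries, Nos2 2 and 0. Il1b, with 88 and 10 counts, fell from 6554 ± 486 to 1819 ± 38.2 CPM under LPS, and its interaction was 1.097 ± 0.54, adjusted p = 0.11. Ptgs2, cyclooxygenase 2, went from 6125 ± 128 to 934 ± 86.2 CPM (interaction 0.69 ± 0.46, adjusted p = 0.26). Ccl3 gave a close measurement: the hormone effect was -1.42 ± 0.09 without and -1.41 ± 0.07 with LPS (interaction 0.01 ± 0.10, adjusted p = 0.99). For Ccl2 the values were -1.58 ± 0.28 and -1.72 ± 0.19 (interaction -0.14 ± 0.35, adjusted p = 0.8). Nr3c1, the glucocorticoid receptor itself, was raised by LPS from 98.8 ± 6.08 to 427 ± 8.56 CPM, and the hormone lowered it to 68.5 ± 2.25 and 337 ± 22.5 (interaction 0.19 ± 0.08, adjusted p = 0.057). Without untreated library 2, the adjusted p was 0.0084 for Il1b and 0.034 for Nr3c1, and without LPS plus dexamethasone library 1 it was 0.014 for Nr3c1. Edn1, endothelin 1, is sorted as a lost induction, but it had 0 counts in untreated and 7 in dexamethasone libraries, against 539.96 ± 23.3 and 568 ± 32.4 CPM with LPS and with both.

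Seen from LPS, the interaction ran mostly against the LPS response. Among the 2630 genes LPS alone raised at least 2-fold, 481 (18.3%) had a negative and 105 (3.99%) a positive interaction of 2-fold or more, and among the 3249 it lowered, 604 (18.6%) had a positive and 86 (2.65%) a negative one. In the 9106 other genes the shares were 2.35% positive and 3.04% negative. The LPS effect and the interaction share the LPS and untreated libraries, so these shares are descriptions.

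Of the 32 gene lists, cholesterol synthesis stood out by count. In 21 of its 22 tested members the interaction was positive and called, against 20.8% of all tested genes, and in none was it negative; 16 members passed 2-fold, and the median was 1.70 against 0.03 for all genes. All 22 members averaged at least 1 CPM in each group. Also counted were 21 positive calls with RLE scaling, with library size alone and with DESeq2. Dexamethasone alone was called down in 12 and up in 1 of these genes (median -0.38), LPS alone down in 17 and up in 1 (median -0.58), and dexamethasone under LPS up in 20 and down in none (median 1.22). Insig1, which holds the sterol-sensing SREBP complex in the endoplasmic reticulum, was 110.2 ± 3.83 CPM in untreated cells, 59.4 ± 1.96 with dexamethasone, 57.7 ± 5.66 with LPS and 161 ± 28.5 with both (interaction 2.37 ± 0.17, adjusted p = 6.4e-10). The mevalonate decarboxylase Mvd had the largest interaction of the list, at 24.7 ± 1.26 CPM in untreated cells, 22.4 ± 1.002 with dexamethasone, 9.998 ± 1.52 with LPS and 54.8 ± 8.39 with both (2.59 ± 0.14, adjusted p = 1.7e-16), followed by the sterol oxidase Msmo1 at 189 ± 7.99 CPM in untreated cells, 114 ± 8.6002 with dexamethasone, 51.02 ± 4.29 with LPS and 175 ± 21.4 with both (2.51 ± 0.17, adjusted p = 3.5e-10). By class, 7 members are synergistic rises, 7 are antagonised LPS repressions and 2, Cyp51 and Hsd17b7, are reversed hormone repressions. The smallest called interactions were those of Mvk (0.43), Pmvk (0.49) and Srebf2, the transcription factor that drives the pathway (0.59, adjusted p = 0.00011); Mvk lost its call without untreated library 3, dexamethasone library 3 or LPS library 1. Ebp was not called (-0.12, adjusted p = 0.4). At 24 h, in other libraries of the same fit, 15 of the 22 had a positive and 1, Pmvk, a negative interaction (all genes 20.5% and 17.7%).

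**Figure D3:**
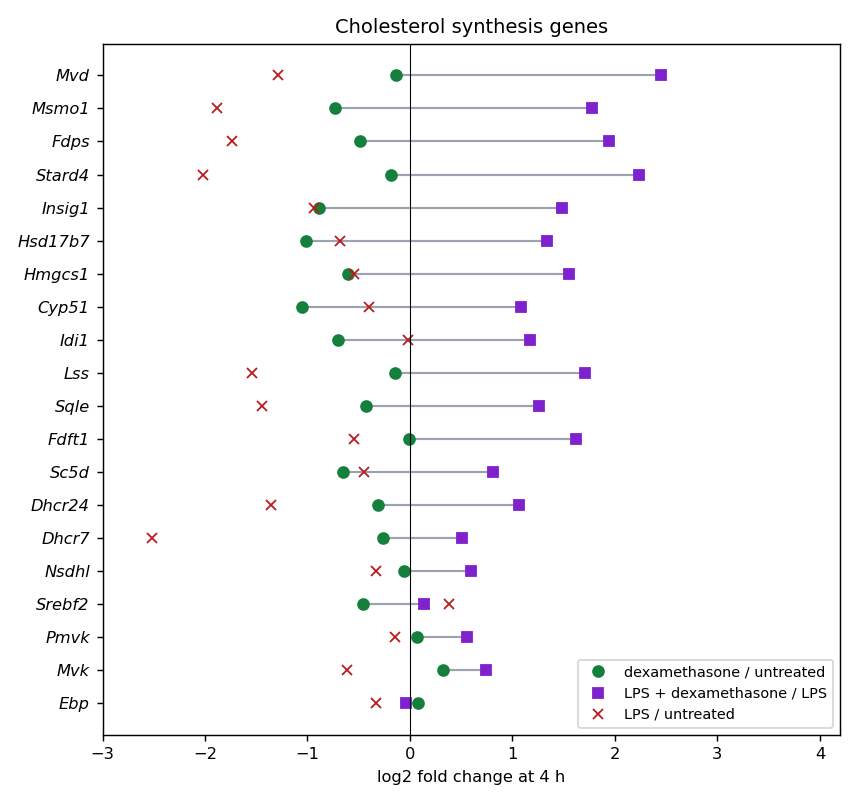
Log2 fold changes at 4 h of 20 of the 22 tested genes of cholesterol synthesis, with dexamethasone against untreated (circles), LPS plus dexamethasone against LPS (squares) and LPS against untreated (crosses). The line between circle and square is the interaction, which points to the right in all genes drawn but Ebp.

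Cell cycle genes leaned the same way, with 23 positive and 2 negative of 33 (all genes 20.8% and 17.9%) and a median of 0.71. LPS alone was called down in 30 and up in 2, Ccnd2 and Cdkn1a, of them (median -1.34). The genes that LPS lowered at least 2-fold leaned positive as a whole, with a median interaction of 0.52. The interaction reached 2-fold in 10, among them Mki67 (195 ± 14.9 CPM with LPS, 385 ± 41.4 with both, interaction 1.19) and Mcm3, a subunit of the replicative helicase (1.399). The 2 negative members were Ccnd2, cyclin D2 (-1.21), and the Cdk inhibitor Cdkn1a (-0.90). At 24 h, 30 members were positive and 2 negative (all genes 20.5% and 17.7%), with a median of 3.32.

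Components and feedback inhibitors of Jak-Stat signalling leaned the opposite way. Of 15 tested members, 12 had a negative and none a positive interaction (all genes 17.9% and 20.8%), with a median of -0.88. LPS alone was called up in 14 of the 15 and down in 1 (median 3.39). The genes that LPS raised at least 2-fold also leaned negative as a whole, with a median interaction of -0.45. Stat3 was 97.3 ± 2.99 CPM untreated, 169 ± 0.476 with dexamethasone, 891 ± 42.1 with LPS and 370.4 ± 23.9 with both (interaction -2.07, adjusted p = 1.2e-21). Il4ra, the receptor of interleukins 4 and 13, was raised by the hormone from 69.6 ± 8.65 to 156 ± 6.86 CPM in resting cells and lowered from 1246 ± 17.5 to 340.3 ± 28.6 under LPS (interaction -3.04). Jak2 (-1.25), Stat5a (-1.35) and Jak1 (-0.88) were negative as well, and Socs2 had the largest value (-5.45), on an untreated level of 0.345 ± 0.222 CPM. Socs1, Pim2 and Pim3 were not called. As many as 12 negative calls were also counted with RLE scaling, with library size alone and with DESeq2. At 24 h 8 members were negative and 1, Socs2, positive.

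Glucocorticoid receptor targets did not move as a block: 14 of 26 were negative, 8 positive and 4 not called (median -0.73), against 17.9% negative and 20.8% positive of all tested genes. Their median hormone effect was 2.24 without LPS and 0.86 with it. The negative side held Ddit4, Pik3ip1, Dusp1, Nfkbia, Fkbp5 and Map3k6 (-2.05), the positive side Tsc22d3, Per1, Cd163, Klf9 and Mt1, a metallothionein that rose from 61.8 ± 1.01 to 248 ± 21.97 CPM without LPS and from 480.4 ± 16.4 to 2632 ± 99.2 with it (0.45, adjusted p = 0.018). Krüppel-like, C/EBP and lineage factors were negative in 10 and positive in 3 of 17 (median -0.79), beside the same shares of all genes. Beside Irf8 and Klf6, the hormone raised Cebpb from 50.9 ± 2.49 to 159 ± 7.89 CPM in resting cells and lowered it from 863 ± 48.98 to 550.1 ± 81.6 under LPS (interaction -2.29). Klf4 rose alike in both settings and was not called (0.09, adjusted p = 0.74). With scaling by library size alone these factors read 5 positive and 8 negative.

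Other lists are given beside the 20.8% positive and 17.9% negative of all genes. Inflammasome and interleukin 1 control genes had 4 positive and 9 negative of 16 (median -0.56), and cell death regulators 6 and 13 of 24 (median -0.46). Interferon-stimulated genes had 5 positive and 9 negative of 39, chemokines 4 and 5 of 21, and inflammatory cytokines 1 and 6 of 19. With scaling by library size alone the interferon-stimulated genes read 8 positive and 5 negative, and their median turned from -0.07 to 0.16; that of the chemokines turned from -0.14 to 0.09. NF-kB feedback genes split into 10 positive and 6 negative of 19, with Nfkbia and Birc3 on the negative side (-1.403 ± 0.08 for Birc3) and Icam1 on the positive (1.58 ± 0.09). Glycolysis genes were 4 positive and 12 negative of 24 (median -0.33), led by Hk2 (-1.34 ± 0.10) on one side and Eno2 (2.63 ± 0.23) on the other. With scaling by library size alone glycolysis genes read 7 positive and 8 negative (median -0.10). G protein-coupled signalling genes were 10 and 10 of 29, of which 8 and 9 passed 2-fold.

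**Figure D4:**
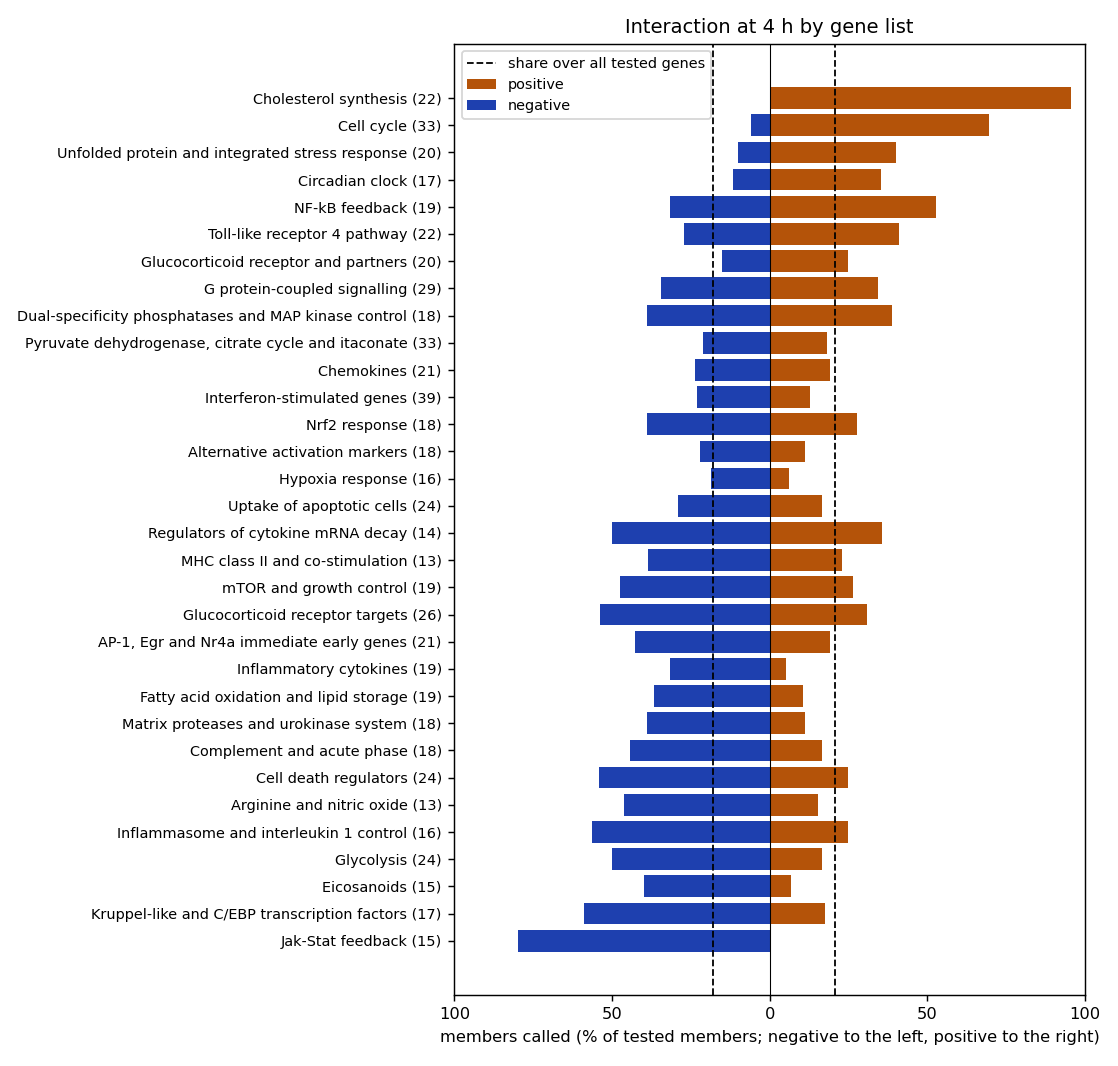
Share of the tested members of each of 32 gene lists (number tested in brackets) with a called interaction at 4 h, positive to the right and negative to the left, and the share over all tested genes as dashed lines (20.8% and 17.9%). Cholesterol synthesis lies at the positive end with 21 of 22 members, Jak-Stat feedback at the negative end with 12 of 15.

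Promoters were searched for 4 sequence motifs, on both strands, in the 300 bases from 250 before to 50 after each RefSeq start (GRCm38.p6), which 10290 of the tested genes had. The glucocorticoid response element was sought by its palindromic consensus, AP-1 as TGANTCA, and the NF-kB site and the interferon-stimulated response element by their consensus, and matches of different motifs may overlap. The 4 promoters shown belong to genes of the loss groups or of the fixed panel and hold a match, written in capitals. Sgk1, a panel gene encoding a kinase of ion transport, lies below the 2-fold limit with an interaction of -0.68 ± 0.11, adjusted p = 6.3e-06 (hormone effect 0.80 without and 0.12 with LPS) and holds a glucocorticoid response element 188 bases before the start, in the promoter window chr10:21993640-21993939, plus strand.
Sgk1: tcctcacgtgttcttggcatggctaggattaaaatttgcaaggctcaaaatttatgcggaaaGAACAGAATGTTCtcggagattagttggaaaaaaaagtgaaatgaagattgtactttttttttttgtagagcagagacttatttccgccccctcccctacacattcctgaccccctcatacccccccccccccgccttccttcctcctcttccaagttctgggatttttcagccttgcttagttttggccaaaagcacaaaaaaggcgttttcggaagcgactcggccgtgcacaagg
Gpr35, of the reversed inductions, holds an AP-1 match 184 bases before the start, in the promoter window chr1:92978653-92978952, plus strand.
Gpr35: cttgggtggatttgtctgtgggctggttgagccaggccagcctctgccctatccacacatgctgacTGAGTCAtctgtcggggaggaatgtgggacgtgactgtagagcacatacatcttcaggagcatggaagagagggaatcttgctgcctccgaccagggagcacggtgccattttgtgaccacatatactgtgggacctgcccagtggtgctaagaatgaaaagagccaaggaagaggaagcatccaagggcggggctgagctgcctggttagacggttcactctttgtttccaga
Il15ra, of the inductions no longer called, holds one 30 bases before the start, in the window chr2:11705462-11705761, plus strand.
Il15ra: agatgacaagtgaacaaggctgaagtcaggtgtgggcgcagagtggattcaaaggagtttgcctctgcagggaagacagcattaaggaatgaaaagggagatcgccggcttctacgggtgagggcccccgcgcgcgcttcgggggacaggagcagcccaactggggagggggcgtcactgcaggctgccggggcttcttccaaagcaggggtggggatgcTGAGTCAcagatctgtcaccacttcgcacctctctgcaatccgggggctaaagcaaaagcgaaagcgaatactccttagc
Ifit3, of the weakened repressions, holds a pair of interferon-stimulated response elements, 156 and 122 bases before the start, in the window chr19:34583279-34583578, plus strand.
Ifit3: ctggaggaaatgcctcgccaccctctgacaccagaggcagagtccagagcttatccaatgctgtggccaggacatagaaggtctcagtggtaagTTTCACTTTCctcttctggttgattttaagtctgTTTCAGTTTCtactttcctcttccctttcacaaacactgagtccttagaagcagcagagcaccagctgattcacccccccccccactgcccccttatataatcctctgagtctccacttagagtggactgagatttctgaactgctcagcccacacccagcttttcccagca

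Motif shares differed between classes, as a description without a test. An AP-1 match was in 17.8% of promoters of reversed inductions (13 of 73), 11.1% of those no longer called (8 of 72) and 12.9% of those weakened (8 of 62). It was in 15.7% of weakened repressions (8 of 51), against 6.58% of all tested genes with a promoter. Interferon-stimulated response elements were in 19.6% of weakened repressions (10 of 51) and 11.2% of antagonised LPS inductions (24 of 215), against 4.09%. They were in 0 of the 93 promoters of the synergistic rises. NF-kB matches were in 12.9% of synergistic rises (12 of 93), 11% of reversed inductions (8 of 73) and 10% of reversed repressions (3 of 30), against 6.32%. Lost repressions (3.61%) and antagonised LPS repressions (4.87%) lay below that share. The glucocorticoid response element was rare in this window, in 35 of 10290 genes (0.34%), 4 of 23 of the receptor target list (17.4%), and no promoter of the synergy, antagonism or reversed classes. With matches so rare, their absence from a class says little.

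At 24 h the interaction was again found in a share of these genes that differed by class. The libraries of 24 h are other libraries, but the fit behind the sorting drew its estimate of spread per gene from them too. The shares are therefore descriptions. Over all tested genes, the interaction at 24 h was called positive in 20.5% and negative in 17.7%. A called interaction of the same sign as at 4 h was found in 70.7% of the reversed hormone repressions, 52.7% of the reversed inductions, 47.6% of the antagonised LPS repressions and 43.2% of the antagonised LPS inductions. Synergistic rises came to 36.8%, with 20.8% of the opposite sign. Synergistic falls came to 25.8% of the same and 25.2% of the opposite sign, and lost inductions to 25.7% and 17.7%. Among the synergistic falls Myc had an interaction of 6.04 ± 0.45 at 24 h against -1.19 ± 0.19 at 4 h, and Irf8 -0.44 ± 0.08 at 24 h against -2.78 ± 0.08. Il10 changed sign, from -2.34 ± 0.18 to 2.66 ± 0.42 (adjusted p = 1.1e-05). Ddit4 stayed negative at -4.28 ± 0.15 and Tsc22d3 positive at 0.73 ± 0.09. The interaction itself differed between 24 h and 4 h in 5748 genes (38.4%).

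**Figure D5:**
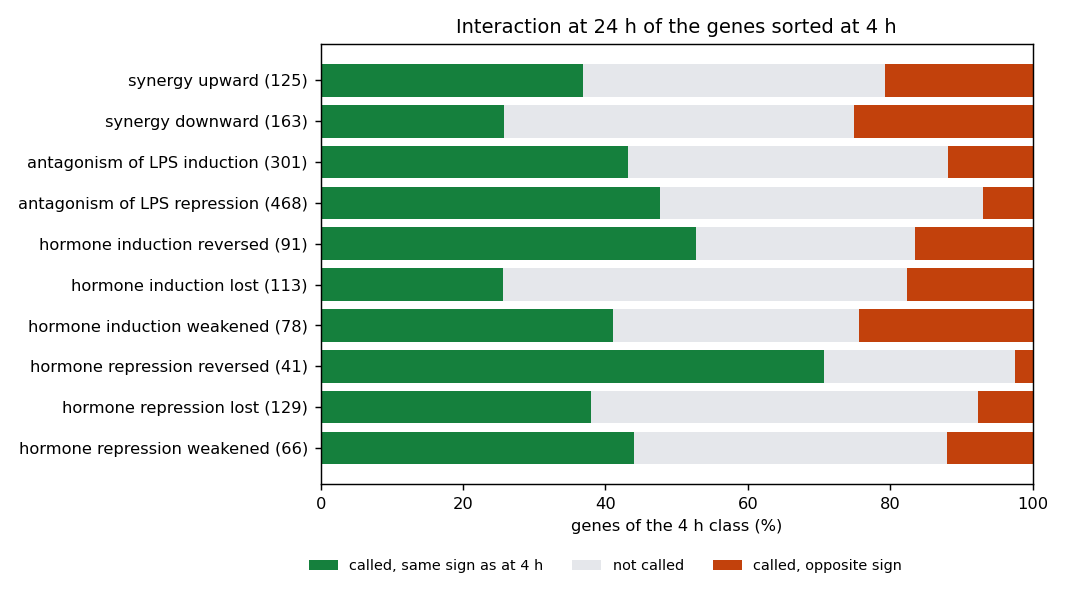
Interaction at 24 h of the genes of each 4 h class (number of genes in brackets), as the share called with the same sign, not called and called with the opposite sign. Reversed hormone repressions have the highest same-sign share at 70.7% and lost inductions the lowest at 25.7%, next to synergistic falls at 25.8%.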

How the data were processed

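The data are RNA-seq counts from 24 libraries, 3 in each of 8 groups. The deposited table holds raw read pair counts per gene, made by the authors with featureCounts 2.0.0 on read pairs, without strand, over the exons of GENCODE M29, and without reads that map to several places or overlap several genes, per the file headers. Reads of overlapping antisense genes cannot be told apart in such counts. STAR and the builds GRCm38 and mm10 are named in the submitters' processing notes, while the gene positions in the table differ from those of RefSeq's GRCm38.p6 table, so the build behind the alignment is uncertain. The gene length column (another unit, per the file headers) was not used.

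Of 55357 genes, 25771 had no count, 14601 were below edgeR's filterByExpr and 14985 were tested. Libraries held 18326206 to 27908164 counts. The 8 group means were fitted together over all 24 libraries (edgeR 4.0.16, R 4.3.3, TMM scaling, robust quasi-likelihood, 16 residual degrees of freedom, biological coefficient of variation 6.29%), and p-values are two-sided with Benjamini-Hochberg adjustment and a threshold of 0.05. The standard error is the log2 fold change divided by the root of F. The procedure was tested on simulated counts.

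Sorting used genes with a called interaction of at least 2-fold. A gene changed at least 2-fold by dexamethasone alone, with an interaction of opposite sign, was reversed, lost or weakened when its hormone effect under LPS was called the other way, not called or called the same way. Among the others, antagonism needed a called hormone effect under LPS with the sign of the interaction and a called 2-fold LPS effect of opposite sign. Synergy was sought only in the genes left after that. It needed both agents together to be called against untreated, against LPS and against dexamethasone, all with the sign of the interaction.

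The classes, the 32 gene lists and the motifs were chosen with earlier results of these data known. Named genes are part of a panel of hormone and LPS genes, of the 6 leading genes of each class with at least 1 CPM in every group and 5 CPM in 1, of the leading 2 genes of each list in either direction, and of low genes of each class. Cebpb, Cyp51, Ebp, Il4ra, Jak1, Jak2, Klf4, Map3k6, Mki67, Mt1, Mvk, Pim2, Pim3, Pmvk, Socs1, Srebf2, Stat3 and Stat5a are outside these and were chosen after their values were seen. Some genes are not reported here. Alternatives were other scalings, DESeq2 1.42.0, other filters and thresholds, the 12 libraries of 4 h alone, a replicate block, each of those 12 libraries left out in turn and the linear scale.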

Additional observations from a re-analysis of the deposited data

Results flagged for a closer look

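For 19 genes that led their classes at 4 h, the interaction at 24 h was tested against that at 4 h in the same fit (log2 difference, 24 h minus 4 h, adjusted p from edgeR's quasi-likelihood test over all genes). It differed in 18 of them; Map3k9 was the exception. The genes were taken for their large values at 4 h, and how far that choice alone makes the later value smaller was not tested.

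Among the synergistic genes, the difference was -2.37 for Tsc22d1 (adjusted p = 7.2e-13), whose interaction was 3.52 at 4 h and 1.14 at 24 h. It was -3.47 for Ppp1r12b (1.6e-08), which went from 2.77 to -0.70. Cd300lb differed by 1.80 (1.2e-06), from -3.66 to -1.86.

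Among the antagonised genes, Mxd1 differed by 2.80 (adjusted p = 1.7e-14), from -3.30 to -0.51, and Osm by 2.55 (1.8e-06), from -2.98 to -0.43. Nfatc2 differed by -2.71 (8.6e-12), from 3.36 to 0.65, and Sik1 by -2.19 (3.4e-11), from 3.17 to 0.98.

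Lessened hormone inductions moved toward 0 or past it. Slc28a2 differed by 5.26 (adjusted p = 3.1e-25), from -5.20 to 0.07, and Pik3ip1 by 4.28 (1.1e-12), from -4.65 to -0.37. Htr2a differed by 4.07 (4e-06), from -3.17 to 0.91, and Ddit4 by 3.86 (2.1e-14), from -8.14 to -4.28. Ms4a4c differed by 2.36 (4.6e-07), from -2.97 to -0.61, and Ptger2 by 1.53 (5.9e-06), from -4.44 to -2.92.

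Lessened hormone repressions had smaller positive interactions at 24 h. The difference was -2.67 for Plk2 (adjusted p = 3.7e-07; 3.82 to 1.15), -2.15 for Rrad (2.6e-10; 2.84 to 0.69), -1.62 for Fam20c (2.3e-12; 2.82 to 1.21), -1.56 for Dusp4 (0.00021; 2.64 to 1.07) and -0.78 for Enc1 (0.006; 2.29 to 1.5).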

How the results depend on the processing

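Scaling by library size alone changed the counts of called interactions to 5279 positive and 1566 negative from 3122 and 2675. It also gave 148 antagonised LPS inductions (301 in the report), 881 antagonised LPS repressions (468) and 70 reversed repressions (41), and 1515 of the 1767 sorted genes were sorted again, 82.4% of those in the same class. With a mean of at least 1 CPM in every group there were 309 antagonised LPS repressions, 47 lost inductions (113), and 26 reversed, 43 lost (129) and 39 weakened (66) repressions; fewer genes are then tested. An adjusted p of 0.01 gave 27 reversed repressions. With no minimum size there were 560 synergistic rises (125), 492 synergistic falls (163), 803 and 892 antagonised inductions and repressions, 162 weakened inductions (78) and 168 weakened repressions. At 4-fold or more these were 30, 46, 79, 118, 32 and 13, with 68 lost inductions, 66 lost repressions and 25 reversed repressions. The other counts stayed within 1.5 times under the alternatives run for them, those leaving out 1 library of 4 h included (2921 to 3084 positive and 2488 to 2648 negative calls).

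On the linear CPM scale the departure from additivity had the opposite sign for 12 named genes: 103 CPM for Cd300lb, -657 for Tsc22d3, -121 for Cd163, -13.9 for Per1, -14.2 for Klf9, -163 for Tns1, 99.2 for Gda, -0.17 for Tnf, -1660 for Acod1, -6511 for Cxcl10, -1470 for Ifit3 and 27.6 for Edn1. Those of Tnf and Edn1 are smaller than the SD of at least 1 of their groups, so their sign is not resolved.

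Replicate numbers did not pair the libraries: the 18 correlations of same-numbered deviations at 4 h ran from -0.055 to 0.035, and in 5 of 18 the best match had the same number. With the replicate block, 3112 positive and 2664 negative interactions were called at 4 h, 3049 (3065 without the block) and 2643 (2659) at 24 h, and 5687 (5748) differed between the times.

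Of the 97 named genes called at 4 h, 94 kept their call with any 1 library of 4 h left out. Il1r2 lost it without untreated library 2 (1.77, adjusted p = 0.14, edgeR), Mvk without untreated library 3 (0.37, 0.058), dexamethasone library 3 (0.37, 0.055) or LPS library 1 (0.38, 0.055), and Plau as described above, also without a filter on low counts (adjusted p = 0.056). Nr3c1, not called, passed with scaling by library size (0.42, adjusted p = 1e-05), without the filter (0.04), in the 12 libraries alone (0.044) and without untreated library 2 (0.034) or LPS plus dexamethasone library 1 (0.014), and Il1b without untreated library 2 (1.40, 0.0084). The causes of these differences were not tested.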
